A study of Mus musculus with 48 samples.

Results

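The pyruvate dehydrogenase complex and the enzymes that switch it were described in mouse liver by the rows of 10 genes, taken by symbol from the FROZ and FFPE expression tables. The 10 genes are the kinases Pdk1, Pdk2, Pdk3 and Pdk4, the phosphatase Pdp2, and the subunits Pdha1, Pdhb, Dlat, Pdhx and Dld. The FROZ table listed 8 of them among 11275 genes, without Pdk1 and Pdk2, and the FFPE table listed 6 among 6673 genes, without any of the 4 kinases. Expression was measured by TempO-Seq, in which adjacent detector oligos on a transcript are ligated, amplified and counted, in 48 libraries from 24 male B6C3F1 mice that were 4 weeks old. Mice drank water with dichloroacetic acid (DCA) for 6 days at 1.0, 2.0 or 3.5 g/L, which came to daily doses of 198, 313 or 427 mg/kg-d, or drank it without DCA, with 6 mice per group. Each mouse gave a frozen library (FROZ, mixed lobes) and a library from formalin-fixed, paraffin-embedded sections (FFPE, left lateral and right medial lobes). Per the paper, the samples had been archived for decades. FROZ libraries were made from isolated RNA and FFPE libraries from lysed sections, so preservation and preparation differed together.

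The complex sits in the mitochondrial matrix and turns pyruvate into acetyl-CoA, which links glycolysis to the TCA cycle and to fatty acid synthesis. The kinases phosphorylate the E1 alpha subunit and switch the complex off, and the phosphatases remove the phosphate and switch it on. DCA is an inhibitor of the kinases, so these genes encode the enzyme system that the compound acts on directly, and in liver Pdk4 is known to rise with fasting and fatty acid oxidation.

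The levels below are log2(CPM + 1), where CPM is the count scaled to a total of 1000000 over the listed genes of a table. A gene passed when its FDR was under 0.05, by limma with Benjamini-Hochberg adjustment over all genes of the table. Reads on listed genes ranged from 6.69 to 9.84 M in FROZ and from 1.83 to 6.01 M in FFPE. Hepatocyte markers were present in every library, with 9 of 9 listed in FROZ and 8 of 9 in FFPE, and their summed level in FROZ ranged from 22205 to 28134 CPM in controls and from 19683 to 23773 CPM at 427 mg/kg-d. In FFPE it ranged from 37948 to 50542 CPM in controls and from 26336 to 31369 CPM at 427 mg/kg-d. Of the markers of other liver cells, 3 of 6 Kupffer and macrophage and 3 of 6 erythroid markers fell in FROZ at 427 mg/kg-d. So did 1 of 6 endothelial and 1 of 6 stellate markers, and 0 rose. Of 3 cholangiocyte and 4 lymphocyte markers 0 passed, and of 9 hepatocyte markers 1 rose and 1 fell. Of all genes, 7.33% passed as lower and 22.7% as higher, and a count of 1 is a single gene. In FFPE at 427 mg/kg-d 2 of 8 hepatocyte markers fell and 0 markers of the other liver cells passed, where 2.41% of all genes passed. The part of these cells in the results was not tested. In bulk tissue, fewer cells of a type and less RNA per cell cannot be told apart. Of 4 skeletal muscle markers, Acta1 and Mylpf were listed and Ckm and Myh4 were not. Their summed level was 3196 CPM in the FROZ control of animal 5 and 196 CPM in that of animal 6, against 4.90 to 18.3 CPM in the other FROZ libraries. FROZ results were therefore also computed without animal 5. In FFPE the summed muscle level was 563 CPM in animal 101 and 352 CPM in animal 98, both at 427 mg/kg-d, and at most 83.2 CPM elsewhere. Exocrine pancreas markers in FROZ summed to 119 CPM in animal 101 at 427 mg/kg-d and 96.4 CPM in animal 53 at 198 mg/kg-d, and to at most 18.4 CPM elsewhere. With any 1 library of a table left out, 6 of 8 complex genes in FROZ and 0 of 6 in FFPE passed at 427 mg/kg-d. Each library named above was among those left out.

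Regulators that changed more than 2-fold in FROZ were Pdk4 and, narrowly, Pdp2 (a log2 fold change of 1.05, and 0.99 without animal 5), so their promoter windows are shown. The windows run from 250 bases before to 50 bases after the RefSeq start on GRCm38.p6 (mm10), 5′ to 3′ on the strand of the gene, at chr6:5496229-5496528 on the minus strand for Pdk4 and chr8:104591222-104591521 on the plus strand for Pdp2. Capitals mark a match on either strand to CACGTG, the E-box, to GTAAACA, a FOXO motif, or to a pair of AGGTCA sites 1 base apart, a PPAR/RXR motif.
Pdk4: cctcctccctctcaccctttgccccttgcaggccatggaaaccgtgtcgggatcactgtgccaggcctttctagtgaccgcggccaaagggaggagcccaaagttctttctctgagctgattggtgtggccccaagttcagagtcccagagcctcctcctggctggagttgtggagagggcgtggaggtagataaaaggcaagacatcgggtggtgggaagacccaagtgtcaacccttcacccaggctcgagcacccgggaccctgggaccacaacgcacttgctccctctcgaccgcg
Pdp2: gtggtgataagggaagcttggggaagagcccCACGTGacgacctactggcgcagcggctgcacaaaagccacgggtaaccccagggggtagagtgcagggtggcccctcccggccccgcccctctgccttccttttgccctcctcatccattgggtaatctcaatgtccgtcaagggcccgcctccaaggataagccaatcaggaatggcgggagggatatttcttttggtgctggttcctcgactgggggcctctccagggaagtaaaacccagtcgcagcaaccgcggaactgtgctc
The Pdk4 gene spans chr6:5483351-5496309 and Pdp2 spans chr8:104591451-104599026 in GRCm38. The Pdp2 window held CACGTG from position -219, as did 7.15% of all 32851 promoter windows. The Pdk4 window held no match, also with up to 2 mismatches in the paired sites, which 3.86% of all windows held. GTAAACA was in neither, and in 3.65% of all windows.

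At 427 mg/kg-d Pdk4, the kinase gene best known as the starvation-induced isoform, rose the most among the complex genes of FROZ. Its lowest, median and highest levels were 1.71, 2.15 and 3.79 in controls, 0.78, 1.60 and 3.04 at 198 mg/kg-d, 1.96, 3.19 and 4.64 at 313 mg/kg-d, and 4.08, 5.39 and 6.18 at 427 mg/kg-d. All 6 mice at 427 mg/kg-d lay above every control, whereas the groups at 198 and 313 mg/kg-d overlapped the controls. The mean rose from 2.36 ± 0.74 (SD, n = 6) to 5.34 ± 0.76 (SD, n = 6), a log2 fold change of 2.98 (SE 0.43, FDR 6.71e-06), or 7.89-fold on the log2(CPM + 1) scale. The log2 fold change was -0.64 (SE 0.43, FDR 0.468) at 198 mg/kg-d and 0.80 (SE 0.43, FDR 0.182) at 313 mg/kg-d, neither of which passed. The step from 198 to 313 mg/kg-d passed at 1.45 (FDR 0.0292), as did that from 313 to 427 mg/kg-d at 2.18 (FDR 0.00600). At 313 mg/kg-d 3 of 6 mice lay above every mouse at 198 mg/kg-d. These levels rested on 18 to 118 reads in controls, 6 to 50 at 198 mg/kg-d, 21 to 177 at 313 mg/kg-d and 133 to 659 at 427 mg/kg-d.

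The highest Pdk4 control, at 3.79, was animal 5, the library with the most skeletal muscle transcript, and the next highest control was at 2.42. Without animal 5 the log2 fold change of Pdk4 was 3.27 (FDR 1.61e-06) at 427 mg/kg-d and 1.09 (FDR 0.0597) at 313 mg/kg-d, and it was -0.36 (FDR 0.729) at 198 mg/kg-d. Without animal 74, the highest Pdk4 library at 313 mg/kg-d, it was 0.51 (FDR 0.425) there. The part of muscle RNA in the control level was not tested.

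Pdk3, a kinase with low expression in liver, did not pass at any dose. Its lowest, median and highest levels were 0.86, 1.13 and 1.67 in controls and 0.54, 1.17 and 1.46 at 427 mg/kg-d, and all groups overlapped. Its log2 fold changes were -0.01, 0.34 and -0.09 from the lowest to the highest dose, with SE 0.18 and FDR from 0.186 to 0.988. With 4 to 21 reads per library, the 95% interval at 427 mg/kg-d ran from -0.46 to 0.29.

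Pdp2, a catalytic subunit of the phosphatase that reactivates the complex, rose at the 2 higher doses. Its lowest, median and highest levels were 5.17, 5.47 and 5.70 in controls, 5.00, 5.24 and 5.58 at 198 mg/kg-d, 5.79, 6.04 and 6.39 at 313 mg/kg-d, and 6.25, 6.58 and 6.61 at 427 mg/kg-d. Every mouse at 313 and 427 mg/kg-d lay above every control, and the 198 mg/kg-d group overlapped them. The log2 fold change was 0.59 (SE 0.11, FDR 0.000167) at 313 mg/kg-d and 1.05 (SE 0.11, FDR 2.23e-08) at 427 mg/kg-d. Pdp2 did not pass at 198 mg/kg-d, at -0.20 (SE 0.11, FDR 0.341). The steps from 198 to 313 mg/kg-d (0.79, FDR 1.6e-05) and from 313 to 427 mg/kg-d (0.46, FDR 0.0145) both passed.

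**Figure D1:**
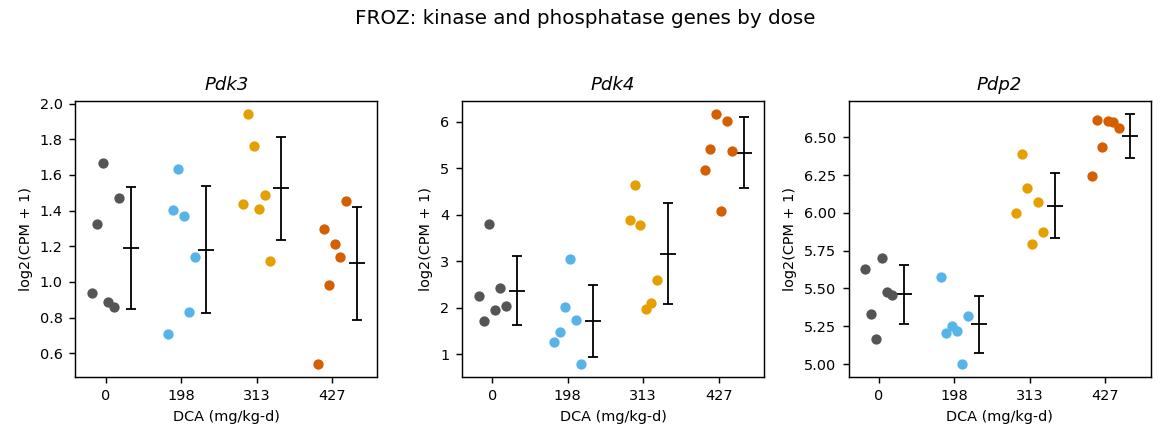
Points are single FROZ libraries of Pdk3, Pdk4 and Pdp2 in log2(CPM + 1) against the DCA dose in mg/kg-d, with the mean and SD of 6 mice beside them and a separate vertical scale for each gene. Pdk4 lay between 4.08 and 6.18 at 427 mg/kg-d, above the highest control at 3.79, and Pdp2 was above all controls at 313 and 427 mg/kg-d.

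Of the 5 subunit genes, 4 passed as higher in FROZ at 313 mg/kg-d and the same 4 genes at 427 mg/kg-d, and all by less than 2-fold. Pdha1, the phosphorylated E1 alpha subunit, had lowest, median and highest levels of 7.14, 7.36 and 7.80 in controls and 7.56, 7.97 and 8.11 at 427 mg/kg-d. Of the 6 mice at 427 mg/kg-d, 5 were above every control, the highest of which was again animal 5. The log2 fold change was 0.31 (SE 0.10, FDR 0.0280) at 313 mg/kg-d and 0.52 (SE 0.10, FDR 0.000345) at 427 mg/kg-d. The call at 313 mg/kg-d was lost with median-ratio scaling, at 0.16 (FDR 0.264), and without any one of animals 3, 6, 8, 75 and 76, at 0.25 to 0.29. The detector oligos of Pdha1 were among those attenuated in the assay.

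Pdhb, the E1 beta subunit, rose from a control range of 5.15 to 5.69 with median 5.51 to a range of 5.72 to 6.38 with median 5.97 at 313 mg/kg-d, and these groups did not overlap. At 427 mg/kg-d it ranged from 5.60 to 6.51 with median 6.14, with 5 of 6 mice above every control. The log2 fold changes were 0.55 (SE 0.15, FDR 0.00766) and 0.65 (SE 0.15, FDR 0.00156). Of the 50-base windows of its transcripts, 10.9% also occur in transcripts of other genes, most often Gm6123, so its reads could be shared with them.

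Dlat, the E2 acetyltransferase core, ranged from 1.68 to 2.42 with median 1.95 in controls and from 2.41 to 2.86 with median 2.53 at 427 mg/kg-d, with 4 of 6 mice above every control. It rose by a log2 fold change of 0.51 (SE 0.13, FDR 0.00600) at 313 mg/kg-d and 0.59 (SE 0.13, FDR 0.00137) at 427 mg/kg-d. Pdhx, which binds E3 to the core, ranged from 2.28 to 2.78 with median 2.66 in controls, from 2.86 to 3.47 with median 3.38 at 313 mg/kg-d, and from 2.95 to 3.47 with median 3.27 at 427 mg/kg-d. Both groups lay wholly above the controls. Its log2 fold change was 0.69 (SE 0.13, FDR 0.000338) at 313 mg/kg-d and 0.65 (SE 0.13, FDR 0.000462) at 427 mg/kg-d, and the step from 198 to 313 mg/kg-d also passed at 0.55 (FDR 0.00717).

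Dld, the E3 dihydrolipoamide dehydrogenase that other mitochondrial complexes share, did not pass. It ranged from 7.68 to 8.19 with median 7.89 in controls and from 7.70 to 8.59 with median 8.17 at 427 mg/kg-d, and the groups overlapped. Its log2 fold change was 0.28 (SE 0.13, FDR 0.126) at 313 mg/kg-d and 0.24 (SE 0.13, FDR 0.183) at 427 mg/kg-d. With the 2 groups compared alone, Dld passed at 313 mg/kg-d, at 0.28 (FDR 0.0470).

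**Figure D2:**
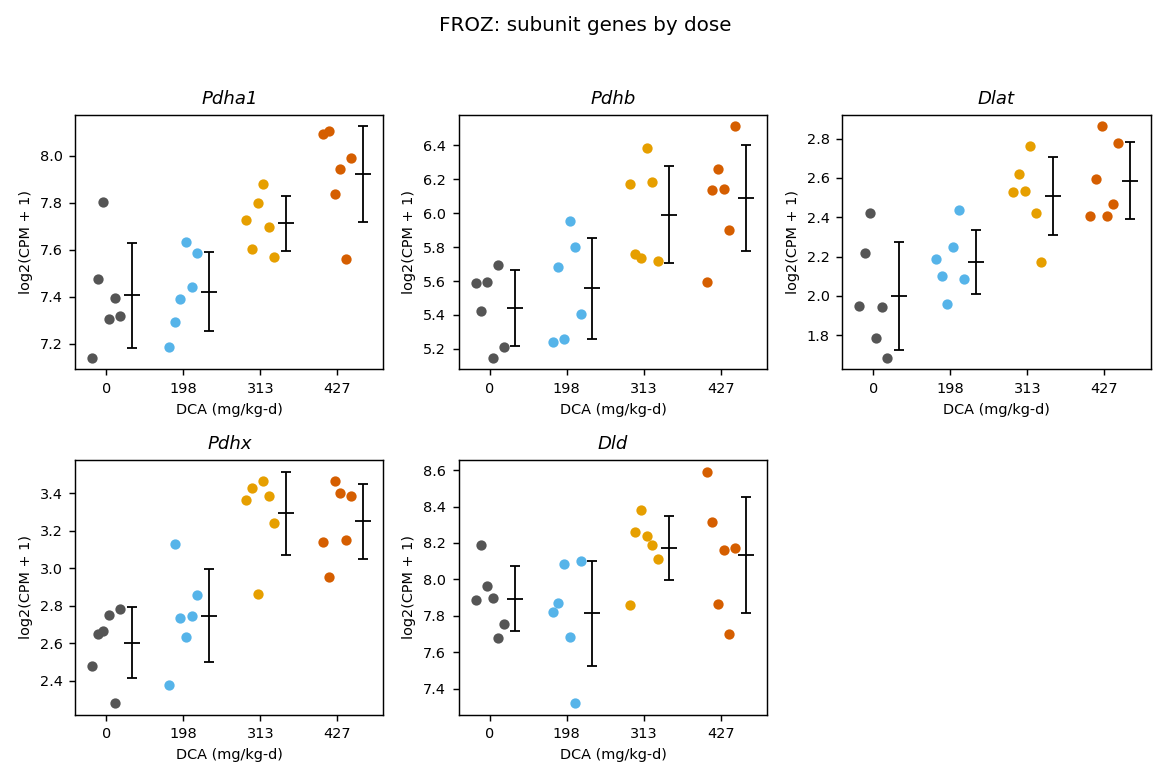
Points are single FROZ libraries of the 5 subunit genes in log2(CPM + 1) against the DCA dose in mg/kg-d, with the mean and SD of 6 mice beside them and a separate vertical scale for each gene. Pdhx lay above all controls at 313 and 427 mg/kg-d, and Dld overlapped its controls at each dose.

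Among the 8 complex genes listed in FROZ, 0 passed at 198 mg/kg-d by limma, and 0 had an unadjusted p under 0.05, where 1.56% of all genes passed in either direction and 17.1% had an unadjusted p under 0.05. At 313 mg/kg-d 5 of 8 passed as higher against 20.5% of all genes, and 0 passed as lower against 6.15%. At 427 mg/kg-d 6 of 8 passed as higher against 22.7% of all genes, and 0 as lower against 7.33%. With a fold change above 2, the count was 2 of 8 (Pdk4, Pdp2) against 2.26% of all genes, and it was 1 of 8 (Pdk4) both without animal 5, where Pdp2 was at 0.99, and with median-ratio scaling, where Pdp2 was at 0.91. Groups that did not overlap the controls were found for 3 of 8 genes at 313 mg/kg-d (9.14% of all genes) and 3 of 8 at 427 mg/kg-d (11.4% of all genes). From 198 to 313 mg/kg-d 3 of 8 rose, against 8.05% of all genes, and from 313 to 427 mg/kg-d 2 of 8, against 1.73%. The median log2 fold change of the 8 genes was 0.00, 0.53 and 0.62 from the lowest to the highest dose, beside 0.07, 0.11 and 0.10 over all genes. Median-ratio scaling moved the median over all genes to -0.0030, -0.0043 and -0.0069, and 6 of 8 complex genes still passed at 427 mg/kg-d. Without animal 5 the counts were 5 at 313 mg/kg-d and 6 at 427 mg/kg-d.

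In FFPE, none of the 6 listed genes passed at any dose by limma. The counts were 0 of 6 at 198 mg/kg-d (2 at an unadjusted p under 0.05), 0 of 6 at 313 mg/kg-d (1) and 0 of 6 at 427 mg/kg-d (1), where 0.0599, 1.08 and 2.41% of all 6673 genes passed. Of all genes, 11.8, 11.7 and 8.71% had an unadjusted p under 0.05. The median log2 fold change of the 6 genes was 0.44, 0.55 and 0.86, beside -0.19, -0.12 and 0.18 over all genes. Standard errors were wider than in FROZ, from 0.40 to 1.04, against 0.10 to 0.15 for the same 6 genes. Of 144 values of these genes, 9 were listed at 0, of which 5 were at 198 mg/kg-d. Genes at 0 made up 2.29 to 23.7% of a library at 198 mg/kg-d and 0.974 to 3.73% at 427 mg/kg-d.

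Pdp2 in FFPE had lowest, median and highest levels of 6.61, 7.15 and 7.48 in controls, 0, 6.27 and 6.97 at 198 mg/kg-d, 6.87, 7.38 and 8.12 at 313 mg/kg-d, and 7.56, 7.80 and 8.35 at 427 mg/kg-d. All 6 mice at 427 mg/kg-d lay above every control. The log2 fold change was 0.81 (SE 0.65, FDR 0.956) in the fit over 4 dose groups, whose spread included the value of 0 in animal 53 at 198 mg/kg-d. It was 0.81 (FDR 0.00933) with the 12 libraries of the 2 groups alone, and 0.82 (FDR 0.0293) without the 8 libraries with over 10% of genes at 0. In the fit over 4 dose groups without animal 98 or 101, the libraries with the most muscle transcript, it was 0.74 or 0.72. Neither value passed by limma (FDR 0.999 for both). The 2 groups alone were not fitted without these animals. At 198 mg/kg-d Pdp2 lay the other way, with 5 of 6 mice below every control and a log2 fold change of -2.01 (SE 0.65, FDR 0.260). That value was -0.99 (FDR 0.204) without animal 53 and -0.79 (FDR 0.840) without the 8 libraries with over 10% of genes at 0.

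Dld in FFPE ranged from 5.54 to 6.55 with median 6.27 in controls and from 6.71 to 7.50 with median 7.08 at 427 mg/kg-d, without overlap, with a log2 fold change of 0.92 (SE 0.40, FDR 0.445). Pdp2 and Dld were the 2 of 6 genes whose mice at 427 mg/kg-d all exceeded the controls, against 2.94% of all genes. Pdhb was listed at 0 in 4 of 6 mice at 198 mg/kg-d, all in libraries with over 10% of genes at 0, and its log2 fold change there was -2.54 (SE 1.04, FDR 0.339). Dlat was listed at 0 in 2 controls, and its log2 fold change at 427 mg/kg-d was 1.48 (SE 0.91, FDR 0.798). With an offset of 0.1 or 0.0001 CPM in place of 1 CPM it was 2.56 or 5.88 (FDR 0.730 and 0.609), so its size depended on the offset. Pdha1 and Pdhx had log2 fold changes of 0.72 (SE 0.56, FDR 0.938) and 0.34 (SE 0.70, FDR 1.00) at 427 mg/kg-d, with groups that overlapped.

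**Figure D3:**
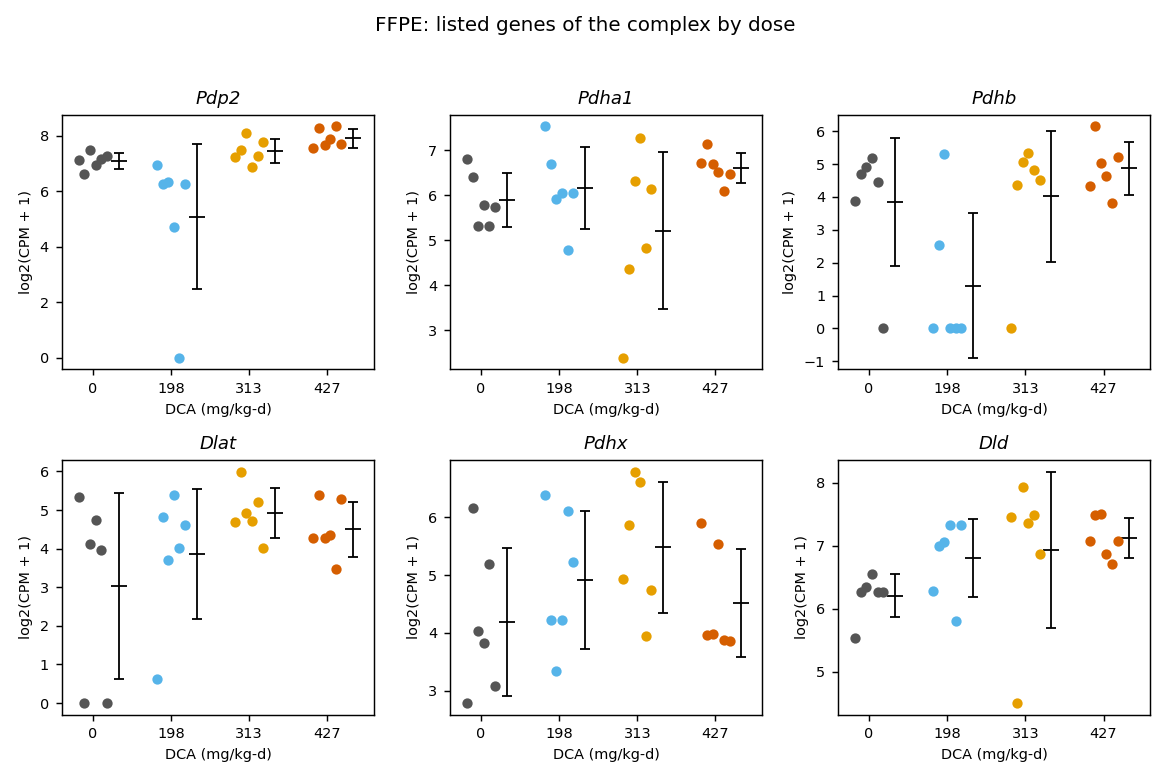
Points are single FFPE libraries of the 6 listed genes in log2(CPM + 1) against the DCA dose in mg/kg-d, with the mean and SD of 6 mice beside them and a separate vertical scale for each gene. Points at 0 are values listed at 0, which were most frequent for Pdhb at 198 mg/kg-d (4 of 6).

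The difference in response between FFPE and FROZ was tested on the difference within each mouse over 6591 genes listed in both tables. None of the 6 complex genes passed by limma: 0 of 6 at 198, 313 and 427 mg/kg-d, where 0.0303, 0 and 0.0303% of all genes passed. Unadjusted p values under 0.05 were found only for Pdhb (-2.66, FDR 0.372) and Pdp2 (-1.81, FDR 0.372) at 198 mg/kg-d. For Pdp2 at 427 mg/kg-d the difference was -0.24, with a 95% interval from -1.70 to 1.23.

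**Figure D4:**
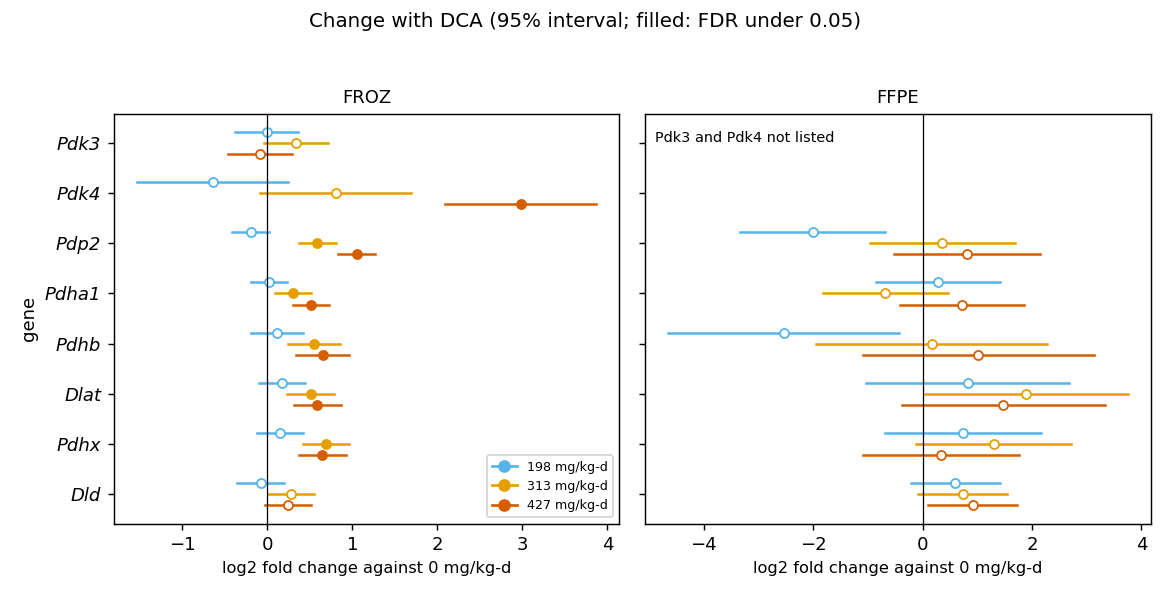
Log2 fold changes against 0 mg/kg-d with 95% intervals for the listed genes in FROZ (left) and FFPE (right) at each dose, on horizontal scales that differ between the panels. Filled points passed an FDR of 0.05, which 6 of 8 genes did at 427 mg/kg-d in FROZ and none in FFPE.

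Genes around the complex were counted in FROZ at 427 mg/kg-d from pathway lists, and each count is to be read beside the 22.7% of all genes that passed as higher, the 7.33% that passed as lower and the median of 0.10 over all genes. Pdpr, the regulatory subunit of the phosphatase, had a log2 fold change of 0.16 (SE 0.12, FDR 0.316), and Pdp1 was not listed. Of 14 TCA cycle genes listed, 10 rose and 0 fell, with a median of 0.42, among them Sdhd (0.76, FDR 4.91e-07), Suclg2 (0.61, FDR 2.88e-07) and Cs (0.58, FDR 1.42e-05), the citrate synthase that takes up acetyl-CoA. Of 10 genes of lipoate synthesis and transfer, which provide the cofactor of Dlat, 6 rose and 0 fell, among them Bola3 (0.63, FDR 0.000125), Glrx5 (0.62, FDR 0.00279) and Iba57 (0.55, FDR 0.0233).

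In the lists of pyruvate supply, related dehydrogenases and thiamine supply, the shares that passed were near those of all genes and are no result about the lists. Of 13 genes of pyruvate supply and entry, 3 rose and 1 fell. Me1, the cytosolic malic enzyme, rose by 2.08 (FDR 3.53e-09), Slc16a1, a monocarboxylate transporter, rose by 0.79 (FDR 8.30e-06), and Ldhd, a D-lactate dehydrogenase, fell by 1.10 (FDR 0.00010). Of 11 genes of related 2-oxo acid dehydrogenases, 3 rose and 1 fell: Dlst, the E2 of the 2-oxoglutarate complex, rose by 0.95 (FDR 7.86e-08), Bckdha rose by 0.39 (FDR 0.0337), and Dhtkd1 fell by 0.46 (FDR 0.00630). Of 4 genes of thiamine supply, 1 rose, Thtpa (0.31, FDR 0.0386). Of 12 regulators known to act on Pdk genes, 4 rose and 2 fell, against 22.7% and 7.33% of all genes. The 3 with the largest log2 fold change were Ppard (-1.84, FDR 2.05e-07), Hif1a (0.79, FDR 9.98e-07) and Foxo1 (-0.47, FDR 0.00515). The other regulators that rose are not named here.

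Over the 24 FROZ libraries, genes with levels most like Pdk4 among the 5875 genes that averaged 10 CPM or more included Dusp6 (Pearson r = 0.90), Nfe2l1 (0.88), Acot3 (0.88) and Cyp2a4 (0.87). Those most like Pdp2 were Plin2 (r = 0.93), Tns2 (0.93), Cerkl (0.92), Acot3 (0.92) and Tenm3 (0.92). These values describe shared variation over 4 doses of the same libraries.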

How the data were processed

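TempO-Seq was measured in 48 liver libraries of 24 mice, grouped by dose and preservation from the sample records, with the libraries of a mouse paired by animal number. The deposited values are log2(CPM + 1). Per the labels and methods, the authors trimmed the reads, mapped the trimmed reads by STAR (2.6) within Partek Flow against mm10, counted RefSeq transcripts by expectation maximization, dropped genes whose geometric mean did not exceed 1, and scaled to CPM. Abundant probes were attenuated. Tables were scaled separately, so FROZ and FFPE levels are not compared, and neither are levels of different genes, which have their own detector oligos.

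CPM and the CPM of 1 read were recovered here. Since estimated counts can be fractional, 1 read was chosen among values shared by at least 3 genes. Each such value was scored by the share of low values, up to about 10 times its size, that were whole multiples of it. The largest value with a score within 10% of the best was kept. Low values were then whole within 0.01 reads for 95.2 to 96.4% in FROZ and 70.4 to 95.9% in FFPE. Depths are therefore estimates, firmer in FROZ.

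limma (3.58.1, R 4.3.3) with a mean-variance trend was fitted to the 24 libraries of a table, with FDR by Benjamini-Hochberg over all genes, and to the within-animal difference between FFPE and FROZ. Pairing was checked over 4815 genes, with a median r of 0.128 within an animal and -0.0232 between animals of a dose. The fits were run on simulated counts with known changes, and recovery of these was required in FROZ only. Libraries with many genes at 0 were not simulated, so this does not show what the fits can find in FFPE. Alternatives were other offsets, filters, scalings, variance priors, library weights and sample sets. Genes named from the pathway lists are the 3 of each list with the largest change among those that passed in FROZ at 427 mg/kg-d, and the 5 most like Pdk4 and Pdp2 by Pearson r, of which 1 is not reported here. The genes and lists were chosen with earlier results of these data known.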

Additional observations from a re-analysis of the deposited data

Results flagged for a closer look

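Of 56 groups of 6 libraries examined, 8 held a library whose gap to its neighbour exceeded the 95% critical value of Dixon's ratio, where chance flags about 1 in 20. In FROZ these were Pdk4 at 0 mg/kg-d, where animal 5 was high at 3.79, and Pdhx at 313 mg/kg-d, where animal 75 was low at 2.86. In FFPE, Pdp2 at 198 mg/kg-d was listed at 0 in animal 53, Pdhb at 0 in animal 8 among controls and in animal 73 at 313 mg/kg-d, and Dlat at 198 mg/kg-d was at 0.63 in animal 49, which corresponds to 1 read. Dld in FFPE was low at 5.54 in control animal 3 and at 4.50 in animal 74 at 313 mg/kg-d. Animals 49, 53, 73 and control animal 3 were among the 8 FFPE libraries with over 10% of genes at 0, and animals 8 and 74 were not.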

How the results depend on the processing

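In FROZ, the 6 complex genes that passed at 427 mg/kg-d did so under each alternative and with each animal left out, and at 313 mg/kg-d 4 to 6 passed (6 with the groups compared alone, which added Dld). Values near 0 reversed: at 198 mg/kg-d Pdha1 was -0.074 with median-ratio scaling and Pdk3 0.14 with array quality weights, which also gave Pdk3 0.011 at 427 mg/kg-d. With 1 animal left out, FROZ values ranged at 198 mg/kg-d from -0.14 to 0.018 for Dld, -0.038 to 0.095 for Pdha1 and -0.10 to 0.085 for Pdk3, and at 427 mg/kg-d from -0.16 to 0.025 for Pdk3. In FFPE at 427 mg/kg-d 2 genes passed with array quality weights (Dld, Pdha1), 2 with the groups compared alone (Dld, Pdp2) and 1 without the 8 libraries with over 10% of genes at 0 (Pdp2), a setting that leaves 2 mice at 198 mg/kg-d. That setting gave 0.073 for Pdhb and -0.68 for Pdhx at 198 mg/kg-d, and -0.10 for Dld and 0.21 for Pdha1 at 313 mg/kg-d, while array quality weights gave -0.11 for Pdhx at 198 and 0.012 for Pdha1 at 313 mg/kg-d. With 1 animal left out, 0 to 1 FFPE genes passed at 313 mg/kg-d (Dld at 1.22, FDR 0.0346 by limma, without animal 74), and Pdhb there ranged from -0.60 to 0.97. The FFPE minus FROZ difference ranged from -0.058 to 0.54 for Pdha1 at 198 mg/kg-d, -1.10 to 0.46 for Pdhb at 313 mg/kg-d, and -0.35 to 0.69 for Pdhb and -0.61 to 0.075 for Pdhx at 427 mg/kg-d. With no replicate block, 0 genes passed for this paired difference at each dose, as with the block. The causes of these changes were not tested. Reads carry no molecular identifiers, so read numbers are not numbers of independent molecules.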
